A study of Mus musculus with 12 samples.

Results

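The enzymes described here are the xenobiotic and aldehyde detoxifying enzymes of the mouse, measured as RNA in HC11 cells, an established line of mouse mammary epithelial cells. Members were taken by gene symbol: aldehyde dehydrogenases (Aldh), glutathione S-transferases (Gst, with the predicted alpha-class gene Gm3776), microsomal glutathione S-transferases (Mgst), aldo-keto reductases (Akr1 and Akr7), carbonyl reductases (Cbr), carboxylesterases (Ces), cytochromes P450 of families 1 to 3 (Cyp), UDP-glucuronosyltransferases (Ugt) and sulfotransferases (Sult). The symbols matched 188 of 57180 genes in the expression matrix, and 71 of them reached 1 TPM in at least 3 of the 12 libraries. TPM is a level corrected for gene length and library total, so levels can be compared between genes.

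The study asked what Snail1, the protein encoded by Snai1, does in collective migration. Cells labelled Snail1 KD (knockdown) or WT (the control, titled scr) were sorted by flow cytometry and left overnight to form aggregates in RPMI medium with serum, EGF and insulin, and an in vitro migration assay followed, from which RNA was collected at its start (0 h) and after 36 h. The 12 libraries form 4 groups of 3: knockdown 0 h, control 0 h and knockdown 36 h, each with libraries numbered 1, 2 and 3, and control 36 h, whose libraries are numbered 1, 3 and 4. The labels do not give the knockdown construct, the number of clones or whether replicate libraries were grown separately. The p-values therefore cover the spread among these libraries, which may be technical. In the authors' matrix the mean columns for knockdown carry the prefix sh_snail1, which the labels do not explain. Control 36 h library 4 carries the unexplained word "mix" in its title and was kept in its group. The authors kept it apart: 1 of their mean columns for control 36 h covers libraries 1 and 3, and another equals library 4 alone.

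Detoxification is usually described in steps. Cytochromes P450, carboxylesterases, carbonyl and aldo-keto reductases and aldehyde dehydrogenases first oxidize, hydrolyse or reduce a compound. Glutathione S-transferases, UDP-glucuronosyltransferases and sulfotransferases then attach glutathione, glucuronic acid or sulfate, which makes the product more soluble and easier to export. Many of these genes respond to a small set of transcription factors. The aryl hydrocarbon receptor (Ahr) is the classic activator of Cyp1a1 and Cyp1b1, and Nfe2l2 (NRF2) activates glutathione enzymes through the antioxidant response element. Aldehyde dehydrogenases also clear aldehydes made by the cell, including products of lipid peroxidation, and ALDH1A enzymes make retinoic acid.

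The alpha-class glutathione S-transferases Gsta1, Gm3776, Gsta5 and Gsta2 include genes that were higher in knockdown at 0 h, at 36 h or at both times, so the 250 bases upstream of their annotated starts are shown first, with those of Cyp1a1 for contrast. The sequences are from RefSeq on build GRCm38.p6, a different build from the GRCm39 that the submitters' processing notes name. They lie at chr9:78230419-78230668 on the plus strand for Gsta1, chr9:78256879-78257128 on the plus strand for Gm3776, chr9:78289678-78289927 on the plus strand for Gsta5 (listed there under the symbol Gm10639), chr9:78347146-78347395 on the minus strand for Gsta2 and chr9:57697363-57697612 on the plus strand for Cyp1a1. They read 5′ to 3′ toward the gene. Capitals mark the longest run of bases that the 4 alpha-class windows share and, in Cyp1a1, the core GCGTG of the xenobiotic response element.
Gsta1: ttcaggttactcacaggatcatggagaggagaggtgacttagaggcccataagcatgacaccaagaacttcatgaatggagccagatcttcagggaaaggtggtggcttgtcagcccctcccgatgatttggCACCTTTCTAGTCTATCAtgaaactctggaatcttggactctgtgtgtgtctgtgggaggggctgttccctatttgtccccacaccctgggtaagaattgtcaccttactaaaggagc
Gm3776: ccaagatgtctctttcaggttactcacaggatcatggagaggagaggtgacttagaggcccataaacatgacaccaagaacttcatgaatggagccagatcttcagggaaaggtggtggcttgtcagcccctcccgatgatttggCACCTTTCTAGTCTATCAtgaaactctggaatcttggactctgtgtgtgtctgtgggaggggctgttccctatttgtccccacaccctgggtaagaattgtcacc
Gsta5: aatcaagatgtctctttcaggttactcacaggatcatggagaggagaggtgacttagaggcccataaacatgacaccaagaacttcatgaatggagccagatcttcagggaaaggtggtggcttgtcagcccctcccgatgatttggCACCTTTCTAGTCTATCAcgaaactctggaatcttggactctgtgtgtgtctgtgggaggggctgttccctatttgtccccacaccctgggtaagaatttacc
Gsta2: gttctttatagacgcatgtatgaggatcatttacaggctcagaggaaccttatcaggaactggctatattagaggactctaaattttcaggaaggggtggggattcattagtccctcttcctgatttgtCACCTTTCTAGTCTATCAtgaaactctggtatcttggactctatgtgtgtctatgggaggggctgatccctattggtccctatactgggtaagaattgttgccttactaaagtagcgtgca
Cyp1a1: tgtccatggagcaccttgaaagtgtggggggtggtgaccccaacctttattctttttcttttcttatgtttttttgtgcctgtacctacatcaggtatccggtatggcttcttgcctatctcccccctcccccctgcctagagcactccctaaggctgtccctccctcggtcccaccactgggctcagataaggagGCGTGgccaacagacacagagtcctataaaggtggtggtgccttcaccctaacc

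The shared run is 18 bases long and occurs in 4 of the 32851 RefSeq windows of this length, which are these 4. Identity was counted over the aligned part of each pair of windows, without unmatched ends. The windows of Gsta1 and Gm3776 are identical at 99.6% of positions (236 of 237), those of Gsta1 and Gsta5 at 97.9% and those of Gm3776 and Gsta5 at 98.0%. Gsta2 stands apart, with 71.7% to 73.3% identity to the other 3. Gsta4, Gsta1, Gm3776 and Gm10639 are consecutive genes on chromosome 9 in that annotation. Windows were found for 58 of the 71 members tested, 68 windows in all. In either orientation, the core of the antioxidant response element (TGACNNNGC) occurs in 5 of them (7.35%, against 10.2% of all windows), GCGTG in 16 (23.5%, against 28.2%) and the Snail E-box CAGGTG in 10 (14.7%, against 17.2%). Gsta1, Gm3776 and Gsta5 hold none of these motifs in the windows shown, whereas Gsta2 and Cyp1a1 hold GCGTG. Other members with GCGTG include Cyp1b1 and Cyp2w1 and, outside the P450s, Cbr1, Gstp1, Mgst3 and Sult2b1. These are matches of letters and not tested binding sites.

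The same likeness extends into the transcripts and limits how far the values of single alpha-class genes can be trusted. Of all runs of 100 bases in the transcripts of Gm3776 (GENCODE M21), 85.5% also occur in another member, and the share is 80.6% for Gsta1, 31.9% for Gsta5 and 28.4% for Gsta2. Gstp1 and Gstp2 share 25.1% and 41.6% of their runs with each other. The Ugt1a transcripts share 50.4% (Ugt1a6a), 70.9% (Ugt1a6b) and 51.6% (Ugt1a7c) with other members, since they use common last exons. How the authors' counting divided such reads is not given in the sources used here, so single values of these genes are uncertain.

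Depth is unknown, because the values are TPM, and no counting error can be given. Snai1, the gene knocked down, had less RNA in knockdown cells at 0 h (0.58, 0.79 and 0.48 TPM, against 1.34, 2.51 and 1.69 TPM in control) and at 36 h (0.58, 0.44 and 0.2 TPM, against 2.77, 2.69 and 3.92 TPM in control), with log2 fold changes of -0.80 and -1.55 (limma adjusted p of 0.0348 and 0.0105). The 0 h value of Snai1 was -0.88 without knockdown 0 h library 2 (adjusted p = 0.0245). Scaled by median of ratios it was -0.51 and was not called (adjusted p = 0.191). Knockdown 0 h library 2 stands apart from the other 11 libraries. Mitochondrially encoded genes hold 14.0% of its TPM, against 1.45% to 6.15% elsewhere, and ribosomal protein genes 13.4%, against 4.34% to 6.57%. It was the lowest library of its group for 61 of the 71 members, and its levels were at a median of 0.371 times the mean of knockdown 0 h libraries 1 and 3, against 0.511 times over all 14426 genes tested. The 0 h calls are therefore given with and without it. Knockdown 0 h library 3 has 27715 genes above 0, against 20932 to 23427 elsewhere.

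Of 8 mammary epithelial markers, 7 passed the filter, and their summed level was 3343 to 10329 TPM in knockdown at 0 h, 10126 to 10342 TPM in control at 0 h, 19533 to 25521 TPM in knockdown at 36 h and 15968 to 18874 TPM in control at 36 h. In control most of that sum was Krt14, with means of 7167 TPM at 0 h and 13388 TPM at 36 h. Krt5 and Trp63 also had higher control means at 36 h. Epcam (1124 TPM at 0 h and 679 TPM at 36 h), Krt18 (82.2 and 43.5 TPM), Krt8 and Cdh1 had lower ones. The milk protein gene Csn2 was at or near 0 throughout. The 5 hepatocyte markers, from a cell type rich in these enzymes, stayed under 0.5 TPM in every library, with Ttr at 0, and the 3 adipocyte markers summed to at most 0.27 TPM. Summed fibroblast markers were 3.76 to 16.1 TPM in knockdown and 14.9 to 17.0 TPM in control at 0 h, and 7.82 to 13.6 TPM in knockdown and 11.9 to 23.2 TPM in control at 36 h. Summed immune markers were 6.64 to 13.2 TPM in knockdown and 10.7 to 16.1 TPM in control at 0 h, and 3.9 to 4.27 TPM in knockdown and 3.72 to 4.6 TPM in control at 36 h. In control most of the immune sum was Cd68, with means of 12.9 TPM at 0 h and 3.28 TPM at 36 h. The 3 endothelial markers summed to between 0.49 and 7.02 TPM. The part of such cells in the results was not tested.

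In the HC11 cells a few members held most of the summed level, which was not compared with other gene sets. Cbr2 (1151 TPM on average over the 12 libraries), Gstp1 (1018 TPM) and Aldh3a1 (894 TPM) together made up 47.9% of the summed mean level of all 188 members, and the 10 highest genes made up 75.5%. The members summed to 3204 to 6524 TPM in knockdown at 0 h, 6087 to 6435 TPM in control at 0 h, 7802 to 8488 TPM in knockdown at 36 h and 5999 to 6137 TPM in control at 36 h. The knockdown libraries at 36 h thus lay above every other library, and knockdown 0 h library 2 supplied the lowest sum. At 36 h the mean sums in knockdown and control were 2748 and 896 TPM for Aldh and 2531 and 1984 TPM for Gst. They were 1138 and 1609 TPM for Cbr and 907 and 982 TPM for Akr1. Aldh3a1 held 80.4% to 84.6% of the Aldh sum in those knockdown libraries, so the higher total rests largely on that gene. Of the 117 members below the filter, 45 were listed at 0 in all 12 libraries, 5 reached 1 TPM in some library, and the highest value was 2.01 TPM (Ugt1a9). The filter passed 71 of the 188 members, beside 14426 of all 57180 genes. The families differed in how many members were present. The filter passed 20 of 24 Gst genes, 17 of 21 Aldh genes, 3 of 3 Mgst genes, 6 of 16 Akr1 genes, the single Akr7 gene, 4 of 4 Cbr genes, 7 of 19 Ces genes, 8 of 62 Cyp genes, 3 of 19 Ugt genes and 2 of 19 Sult genes. Because passing can depend on the group where a gene is high, the counts below describe the 71 genes tested and not all 188.

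At 0 h the knockdown cells had more RNA of several alpha-class glutathione S-transferases and of Aldh3a1, and less of Cbr2, of the carboxylesterases Ces2e and Ces2g and of the P450s Cyp1a1 and Cyp1b1. Of the 71 members, 6 were called higher and 9 lower at an adjusted p under 0.05 (limma on log2(TPM + 1), Benjamini-Hochberg over 14426 genes). The share called was 21.1% of members, against 17.7% of all genes tested, so the count as a whole was near the background. By direction, 8.45% of members were higher, against 3.1% of all genes, and 12.7% were lower, against 14.6%. The median log2 fold change was -0.34 over the members and -0.41 over all genes, or 0.01 and -0.17 without knockdown 0 h library 2. Scaling by median of ratios moves the median of all genes to 0.02, and 15 members were then called higher (8.66% of all genes) and 5 lower (10.2%). Without knockdown 0 h library 2, all 15 of these calls remained and 29 members were called, 15 higher (6.84% of all genes) and 14 lower (16.8%). Without control 0 h library 1, 2 or 3 the count was 6, 6 or 7, against 5.27%, 7.05% or 6.5% of all genes. In bulk RNA, fewer cells of a type and less RNA per cell cannot be told apart.

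At 36 h fewer genes were called over the genome with all libraries, and the log2 fold changes of the members called higher were large. Without knockdown 0 h library 2 the shares of all genes called were closer, 23.7% at 0 h and 19% at 36 h. Of the 71 members, 5 were called higher (Aldh3a1, Gm3776, Gsta1, Ces1f and Gsta2) and 2 lower (Aldh1a1 and Aldh1a7), which is 9.86% of members, against 2.53% of all genes. By direction the shares were 7.04% higher, against 0.894% of all genes, and 2.82% lower, against 1.64%. For 27 members every knockdown library was above every control one (14.8% of all genes), and for 12 every one was below (22%). The calls rest on a spread shared by all 12 libraries: without knockdown 0 h library 2, which is in neither of these groups, 22 members were called higher (7.01% of all genes) and 8 lower (12%). The count was 2 without knockdown 36 h library 2 or control 36 h library 1 or 4 (0.203%, 0.216% and 0.168% of all genes), and 3 without knockdown 36 h library 3 (0.224%). When libraries were scaled by median of ratios, 15 members were called higher (2.5% of all genes) and 4 lower (3.44%). The median log2 fold change was 0.08 over the members and -0.09 over all genes. Aldh3a1, Gsta1 and Gm3776 were called in the same direction at both times, which is 20.0% of the 15 calls at 0 h and 42.9% of the 7 calls at 36 h. Over all genes, 297 were called in the same direction at both times, which is 11.6% of the 2550 calls at 0 h and 81.4% of the 365 calls at 36 h.

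**Figure D1:**
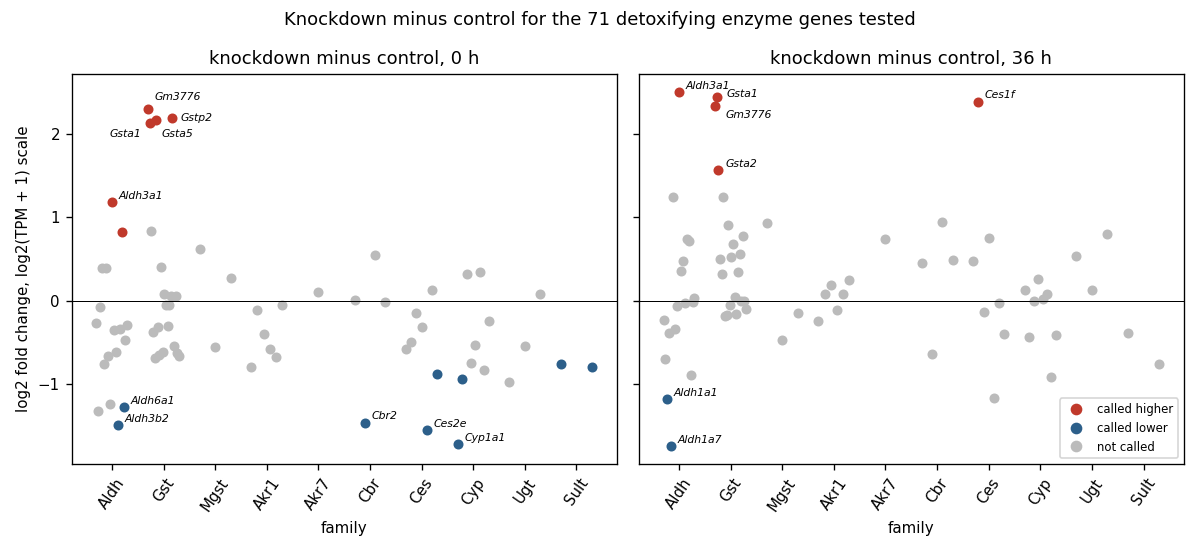
Log2 fold change, knockdown minus control, on the log2(TPM + 1) scale, of the 71 members tested, by family, at 0 h (left) and 36 h (right); each point is 1 gene, red if called higher, blue if called lower and grey if not called by limma at an adjusted p under 0.05. The Aldh3a1, Gsta1 and Gm3776 points are high at both times, and 2 lower calls, Aldh1a1 and Aldh1a7, stand at 36 h, against 9 at 0 h.

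Aldh3a1 (ENSMUSG00000019102), which oxidizes medium-chain and aromatic aldehydes such as those from lipid peroxidation, showed the largest difference in level among the members at 36 h. At 36 h its level was 2534, 2058 and 2217 TPM in knockdown, against 433, 358 and 406 TPM in control. At 0 h it was 823, 328 and 782 TPM in knockdown, against 298, 263 and 227 TPM in control. Every knockdown library lay above every control library of the same time, with knockdown 0 h library 2 only just so. The means were 2269 ± 242 and 399 ± 38.2 TPM at 36 h (SD, n = 3 each), or 5.69 times control, and the log2 fold change was 2.50 (SE 0.301, limma adjusted p = 0.00446). At 0 h the ratio of means was 2.45, and the log2 fold change was 1.19 (SE 0.301, adjusted p = 0.0237), or 1.61 without library 2 (adjusted p = 7.05e-05). Aldh3a1 supplied 80.4% to 84.6% of all aldehyde dehydrogenase RNA in knockdown at 36 h and 42.3% to 46.9% in control at 36 h. The later call held without each library in turn, whereas the earlier one was lost without knockdown 0 h library 1 or any of the 3 control 0 h libraries (adjusted p up to 0.0833).

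Aldh1a1 (ENSMUSG00000053279) and its mouse relative Aldh1a7 (ENSMUSG00000024747), members of the subfamily that includes the retinal dehydrogenases, were lower in knockdown at 36 h. Aldh1a1 stood at 1.1, 0.61 and 0.71 TPM in knockdown, against 3.43, 3.48 and 2.42 TPM in control, and its log2 fold change was -1.18 (SE 0.204, adjusted p = 0.0181). Aldh1a7 stood at 1.28, 0.6 and 0.28 TPM in knockdown, against 4.71, 4.77 and 4.41 TPM in control (log2 fold change -1.75, SE 0.303, adjusted p = 0.0181). The groups did not overlap, but all of these levels are low. At 0 h the log2 fold changes were -0.08 for Aldh1a1 (adjusted p = 0.792) and -0.76 for Aldh1a7 (adjusted p = 0.0984). Each 36 h call was lost without knockdown 36 h library 2 or 3 or control 36 h library 1 or 4 (adjusted p up to 0.0958).

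Few other aldehyde dehydrogenases were called. At 0 h the family's 17 tested members had 2 calls higher and 2 lower with a median log2 fold change of -0.35 (0.00 without library 2), and at 36 h 1 higher and 2 lower with a median of -0.03. Aldh5a1, which oxidizes succinic semialdehyde from GABA breakdown, was higher in knockdown at 0 h, with 3.09, 2.01 and 3.97 TPM, against 1.08, 1.34 and 1.29 TPM in control (log2 fold change 0.82, adjusted p = 0.0296, or 1.01 and 0.00463 without library 2). Aldh6a1, the methylmalonate semialdehyde dehydrogenase of valine breakdown, was lower, with 7.53, 2.73 and 9.42 TPM, against 15.1, 15.6 and 16.8 TPM in control (-1.28, adjusted p = 0.0256, or -0.83 and 0.0115 without library 2). Aldh3b2 was also lower at 0 h, with 46.0, 9.83 and 47.5 TPM, against 77.1, 78.9 and 88.1 TPM in control (-1.50, adjusted p = 0.0488). Its value without library 2 was -0.78 (adjusted p = 0.0129), so that library moved it by more than 1.5 times. At 36 h none of these 3 was called with all libraries, and the log2 fold changes were 0.72, -0.90 and -0.03. Without library 2, Aldh5a1 was called higher and Aldh6a1 lower at 36 h, and both were also called with median-of-ratios scaling. The 0 h calls of Aldh5a1 and Aldh6a1 were lost without any 1 control 0 h library, that of Aldh5a1 also without knockdown 0 h library 1. The Aldh3b2 call was lost without any 1 library outside the knockdown 0 h group.

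Aldh2, the mitochondrial enzyme that clears acetaldehyde, was the second most abundant of the family after Aldh3a1. It stood at 119, 32.4 and 137 TPM in knockdown at 0 h, against 203, 208 and 171 TPM in control (log2 fold change -1.24, adjusted p = 0.0670), and was called lower without library 2 (-0.59, adjusted p = 0.0326). Its 36 h value was -0.06 (adjusted p = 0.979). Aldh1b1, a mitochondrial relative, showed 0.39 at 0 h and 1.24 at 36 h (adjusted p of 0.434 and 0.107). Without library 2 the Aldh1b1 values were 0.87 (adjusted p = 0.0243) and 1.24 (adjusted p = 0.00348), both called higher. Aldh1a3, Aldh1l2, Aldh3a2, Aldh3b1, Aldh16a1 and Aldh18a1 were not called at either time. Their log2 fold changes were between -1.32 (Aldh18a1) and 0.39 (Aldh1a3) at 0 h, or between -0.80 (Aldh18a1) and 0.17 (Aldh3b1) without library 2, and between -0.70 (Aldh18a1) and 0.47 (Aldh3b1) at 36 h. Without library 2, Aldh16a1 was also called lower at 0 h (-0.54, adjusted p = 0.0420).

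Gsta1 (ENSMUSG00000074183), an alpha-class glutathione S-transferase active on lipid hydroperoxides, was higher in knockdown at both times. Its level was 188, 65.7 and 188 TPM in knockdown at 0 h, against 28.4, 27.9 and 32.4 TPM in control. By 36 h its level was 159, 134 and 114 TPM in knockdown, against 23.3, 27.6 and 21.4 TPM in control. No knockdown library came near a control library, and even library 2 held more than any control. The log2 fold changes were 2.13 at 0 h (SE 0.351, adjusted p = 0.00415) and 2.44 at 36 h (SE 0.351, adjusted p = 0.00954), with ratios of means of 4.98 and 5.64. Without library 2 the 0 h value was 2.63 (adjusted p = 1.49e-05).

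Gm3776 (ENSMUSG00000111709), whose transcripts and upstream window nearly match those of Gsta1, followed the same pattern at a lower level. It stood at 76.3, 44.6 and 80.7 TPM in knockdown at 0 h, against 15.4, 9.9 and 12.3 TPM in control (log2 fold change 2.30, SE 0.295, adjusted p = 0.00159, or 2.57 and 0.000156 without library 2). After 36 h it stood at 54.4, 55.2 and 40.5 TPM in knockdown, against 6.23, 11.4 and 10.1 TPM in control (2.34, SE 0.295, adjusted p = 0.00510). The lowest knockdown library exceeded the highest control library at each time. Since its reads can be shared with Gsta1, the summed level of Gsta1, Gm3776, Gsta2 and Gsta5 is also given. The sum would still lack any shared reads that the authors' counting left out. The sum was 293, 122 and 299 TPM in knockdown at 0 h, against 51.8, 45.5 and 55.1 TPM in control, a ratio of means of 4.68. At 36 h it was 235, 212 and 177 TPM in knockdown, against 35.6, 46.0 and 38.1 TPM in control, a ratio of 5.22.

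Gsta5 (ENSMUSG00000074179) and Gsta2 (ENSMUSG00000057933) were each called at 1 of the times. Gsta5 stood at 10.5, 3.71 and 8.74 TPM in knockdown at 0 h, against 0.88, 1.12 and 0.47 TPM in control (log2 fold change 2.17, SE 0.306, adjusted p = 0.00227, or 2.55 and 6.67e-05 without library 2). Its 36 h levels were 3.58, 3.08 and 3.31 TPM, against 0.82, 0.97 and 0.67 TPM in control (1.25, adjusted p = 0.0574, or 0.00164 without library 2). Gsta2 stood at 18.8, 19.0 and 19.1 TPM in knockdown at 36 h, against 5.25, 5.98 and 5.96 TPM in control (1.57, SE 0.312, adjusted p = 0.0294). These 3 libraries lay close together and well above control. At 0 h Gsta2 stood at 17.4, 7.79 and 21.9 TPM in knockdown, against 7.1, 6.49 and 9.84 TPM in control, and the groups overlapped through library 2 (0.83, adjusted p = 0.0828, or 1.24 with adjusted p = 0.00128 without that library). For neither gene did the difference of the 36 h changes pass (-0.92 for Gsta5 and 0.74 for Gsta2, adjusted p = 0.595 for each). With median-of-ratios scaling Gsta5 was also called at 36 h and Gsta2 at 0 h. The calls of Gsta1, Gm3776 and Gsta5 at 0 h and of Gm3776 at 36 h held without each library in turn. The 36 h call of Gsta1 was lost without knockdown 36 h library 2 or control 36 h library 1 or 4 (adjusted p up to 0.0661), and that of Gsta2 without 8 of the 12, namely control 0 h libraries 1 and 2, each knockdown 36 h library and each control 36 h library (adjusted p up to 0.133).

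**Figure D2:**
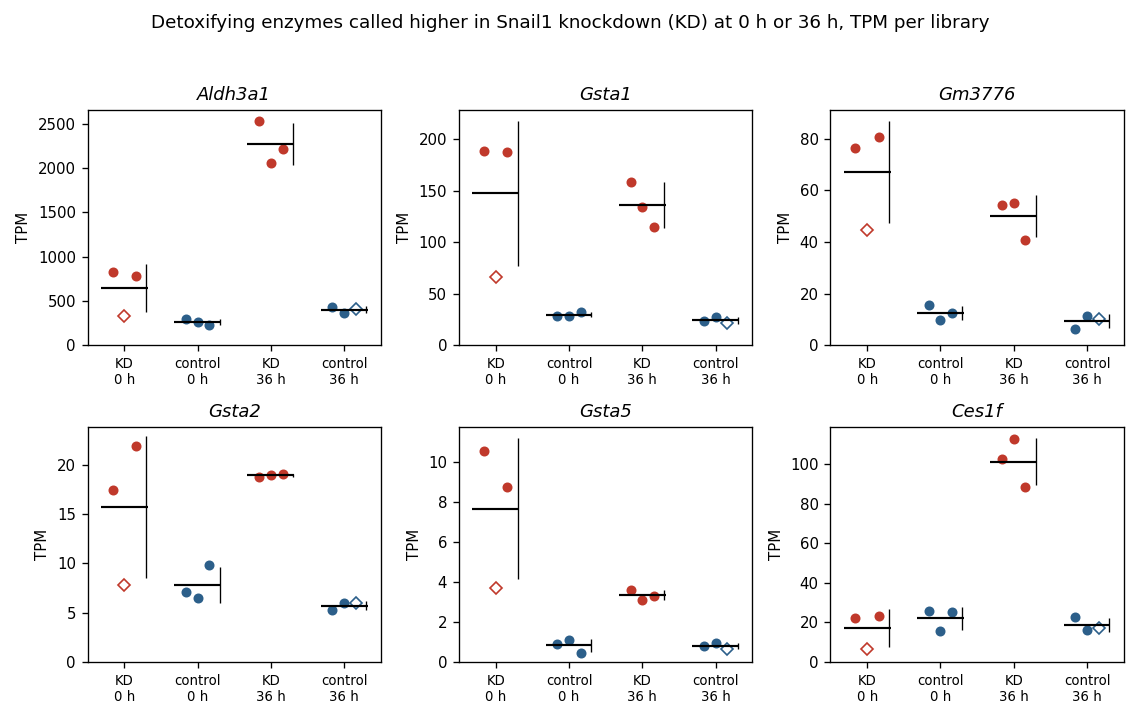
TPM (linear axis from 0) per library of Aldh3a1, Gsta1, Gm3776, Gsta2, Gsta5 and Ces1f in knockdown (KD, red) and control (blue) at 0 h and 36 h; horizontal lines are means, vertical lines are ± 1 SD (n = 3), and open diamonds mark knockdown 0 h library 2 and control 36 h library 4. The 36 h knockdown points lie above all 36 h control points in each panel, whereas Ces1f and Gsta2 overlap between the groups at 0 h.

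Of the 14 glutathione S-transferases tested outside the alpha class, 1 was called higher at 0 h (Gstp2) and 0 at 36 h, and 0 were called lower. Their median log2 fold change was -0.18 at 0 h (0.06 without library 2) and 0.02 at 36 h. Without library 2, Gstm5, Gstp1 and Gstp2 were called higher at 0 h, and Gstm2, Gstm5, Gstm7, Gstp1 and Gstt2 at 36 h. In the alpha class, Gsta4, which conjugates the lipid peroxidation product 4-hydroxynonenal, lies next to Gsta1 on chromosome 9 and was among the most abundant. It stood at 259, 126 and 206 TPM in knockdown at 0 h, against 314, 315 and 287 TPM in control (-0.69, adjusted p = 0.0623), and at 307, 285 and 249 TPM in knockdown at 36 h, against 218, 233 and 221 TPM in control (0.32, adjusted p = 0.593). Without library 2 its 0 h value was -0.40 and was called lower (adjusted p = 0.0345). Gsta3 showed -0.37 at 0 h and 0.50 at 36 h (adjusted p of 0.419 and 0.540).

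Gstp1, the pi-class enzyme and the most abundant transferase, stood at 1155, 590.1 and 992 TPM in knockdown at 0 h, against 873, 837 and 829 TPM in control (0.05, adjusted p = 0.863). After 36 h the level was 1345, 1244 and 1297 TPM in knockdown, against 984, 1047 and 1024 TPM in control (0.35, adjusted p = 0.494), and the groups did not overlap. Without library 2 both values were called higher (0.34, adjusted p = 0.0168 at 0 h and 0.35, adjusted p = 0.0111 at 36 h). Its near copy Gstp2 was called higher at 0 h, with 11.7, 11.7 and 3.47 TPM in knockdown, against 1.88, 0 and 1.61 TPM in control (2.19, SE 0.531, adjusted p = 0.0196, or 1.94 and 0.0393 without library 2). Its call depended on control 0 h library 2 (adjusted p = 0.0750 without it), and at 36 h Gstp2 showed 0.56 (adjusted p = 0.706). Gsto1, an omega-class enzyme, showed -0.31 at 0 h and 0.05 at 36 h (adjusted p of 0.271 and 0.96).

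Among the microsomal enzymes, which sit in membranes and also act on lipid peroxides, none of the 3 was called at either time. Mgst1 (ENSMUSG00000008540) came closest, with 253, 137 and 235 TPM in knockdown at 0 h, against 125, 133 and 133 TPM in control, and 165, 170.1 and 179 TPM in knockdown at 36 h, against 80.9, 104 and 84.3 TPM in control. At each time no knockdown library fell as low as a control one. Its log2 fold changes were 0.62 (adjusted p = 0.0802) and 0.93 (adjusted p = 0.0590). Without knockdown 0 h library 2 both were called higher (0.90, adjusted p = 0.000519 and 0.93, adjusted p = 0.000346). Mgst3 showed 0.27 at 0 h and -0.15 at 36 h (adjusted p of 0.351 and 0.835), and Mgst2 showed -0.55 (adjusted p = 0.0876, called lower without library 2) and -0.47 (adjusted p = 0.296).

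Cbr2 (ENSMUSG00000025150), a carbonyl reductase and the most abundant member on average, was lower in knockdown at 0 h. It stood at 808, 399.5 and 575 TPM in knockdown, against 1538, 1425 and 1794 TPM in control. The means were 594 ± 205 and 1586 ± 189 TPM (SD, n = 3 each), or 0.375 times control (log2 fold change -1.47, SE 0.222, adjusted p = 0.00286). At 36 h the groups again did not overlap, with 986, 939 and 909 TPM in knockdown, against 1434, 1571 and 1428 TPM in control, but the value of -0.64 was not called (adjusted p = 0.165). Without library 2 both were called lower (-1.21, adjusted p = 0.00041 and -0.64, adjusted p = 0.00708). At 36 h the other 3 carbonyl reductases had positive log2 fold changes, none of them called. Cbr3 stood at 33.5, 32.4 and 24.1 TPM in knockdown at 36 h, against 14.7, 14.1 and 16.1 TPM in control (0.94, adjusted p = 0.180), and at 0 h it showed 0.55 (adjusted p = 0.245, or 1.03 and 0.00151 without library 2). Without library 2, Cbr1, Cbr3 and Cbr4 were called higher at both times. The Cbr2 call at 0 h held without each library in turn.

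The aldo-keto reductases, which reduce sugar and lipid aldehydes, gave 0 calls at either time among the 6 Akr1 genes tested by limma. Their median was -0.49 at 0 h and turned to 0.05 without library 2, and at 36 h it was 0.08. Akr1a1, the most abundant, stood at 539, 194 and 509 TPM in knockdown at 0 h, against 658, 662 and 644 TPM in control (-0.80, adjusted p = 0.0945). Its 36 h value was -0.24 (adjusted p = 0.810), and without library 2 it was called lower at both times (-0.32, adjusted p = 0.0215 and -0.24, adjusted p = 0.0484). Akr1b1 showed -0.11 and 0.08, with neither called. Akr7a5, an aflatoxin aldehyde reductase, showed 0.10 at 0 h and 0.73 at 36 h (adjusted p of 0.840 and 0.338). At 36 h no knockdown library (71.7, 67.6 and 64.4 TPM) overlapped a control library (39.6, 42.0 and 39.5 TPM), and without library 2 it was called higher at both times (0.63, adjusted p = 0.00244 and 0.73, adjusted p = 0.000822).

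Ces1f (ENSMUSG00000031725), a carboxylesterase that hydrolyses ester and amide bonds, was high in a single group. It stood at 103, 112 and 88.5 TPM in knockdown at 36 h, against 22.6, 16.0 and 17.2 TPM in control at 36 h. At 0 h it stood at 22.1, 6.29 and 23.3 TPM in knockdown, against 25.6, 15.4 and 25.1 TPM in control. The 36 h ratio of means was 5.44 and the log2 fold change 2.39 (SE 0.408, adjusted p = 0.0178), while at 0 h it was -0.49 (adjusted p = 0.376). Leaving out any 1 knockdown 36 h library, or control 36 h library 1 or 4, ended the 36 h call (adjusted p up to 0.0952).

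Ces2e (ENSMUSG00000031886) and Ces2g (ENSMUSG00000031877), of another carboxylesterase subfamily, were lower in knockdown at 0 h. Ces2e stood at 4.94, 1.39 and 3.41 TPM in knockdown, against 10.1, 10.3 and 11.9 TPM in control (log2 fold change -1.56, SE 0.297, adjusted p = 0.00776, or -1.19 and 0.00195 without library 2). The 36 h levels were 11, 8.95 and 11.3 TPM in knockdown, against 28.6, 21.2 and 24.3 TPM in control, also without overlap (-1.17, adjusted p = 0.0672, or 0.00158 without library 2). Ces2g stood at 1.35, 0.45 and 1.13 TPM in knockdown at 0 h, against 2.01, 3.11 and 2.67 TPM in control (-0.88, adjusted p = 0.0277, or -0.67 and 0.0353 without library 2), and showed -0.40 at 36 h (adjusted p = 0.471). The Ces2e call at 0 h held without each library in turn, and that of Ces2g was lost without any 1 control 0 h library, as it was when the libraries were scaled by median of ratios (-0.62, adjusted p = 0.0521). Of the 7 carboxylesterases tested, 2 were lower and 0 higher at 0 h, and 1 was higher and 0 lower at 36 h.

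The P450s Cyp1a1 (ENSMUSG00000032315) and Cyp1b1 (ENSMUSG00000024087), which oxidize aromatic hydrocarbons, were lower in knockdown at 0 h. Cyp1a1 stood at 5.89, 0.92 and 4.24 TPM in knockdown, against 17.2, 10.6 and 11 TPM in control (log2 fold change -1.73, SE 0.418, adjusted p = 0.0195, or -1.18 and 0.0122 without library 2). Cyp1b1, the most abundant P450 here, stood at 52.9, 43.1 and 78.5 TPM in knockdown, against 113, 107 and 107 TPM in control (-0.94, SE 0.251, adjusted p = 0.0283, or -0.75 and 0.0300 without library 2). Both groups were apart at 0 h and overlapped at 36 h. There Cyp1a1 stood at 15.8, 19.8 and 14.4 TPM in knockdown, against 20.7, 12.2 and 13.3 TPM in control (0.13, adjusted p = 0.939), and Cyp1b1 showed -0.44 (adjusted p = 0.448). The 0 h call of Cyp1a1 was lost without control 0 h library 1 or 3 (adjusted p up to 0.0835). That of Cyp1b1 was lost without knockdown 0 h library 1 or any 1 control 0 h library (adjusted p up to 0.0963), and scaling by median of ratios also ended it (-0.43, adjusted p = 0.0886). Cyp2j6, which epoxidizes fatty acids, showed -0.75 at 0 h and 0.26 at 36 h (adjusted p of 0.250 and 0.874). Over the 8 P450s tested, 2 were lower and 0 higher at 0 h, and 0 were called at 36 h.

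**Figure D3:**
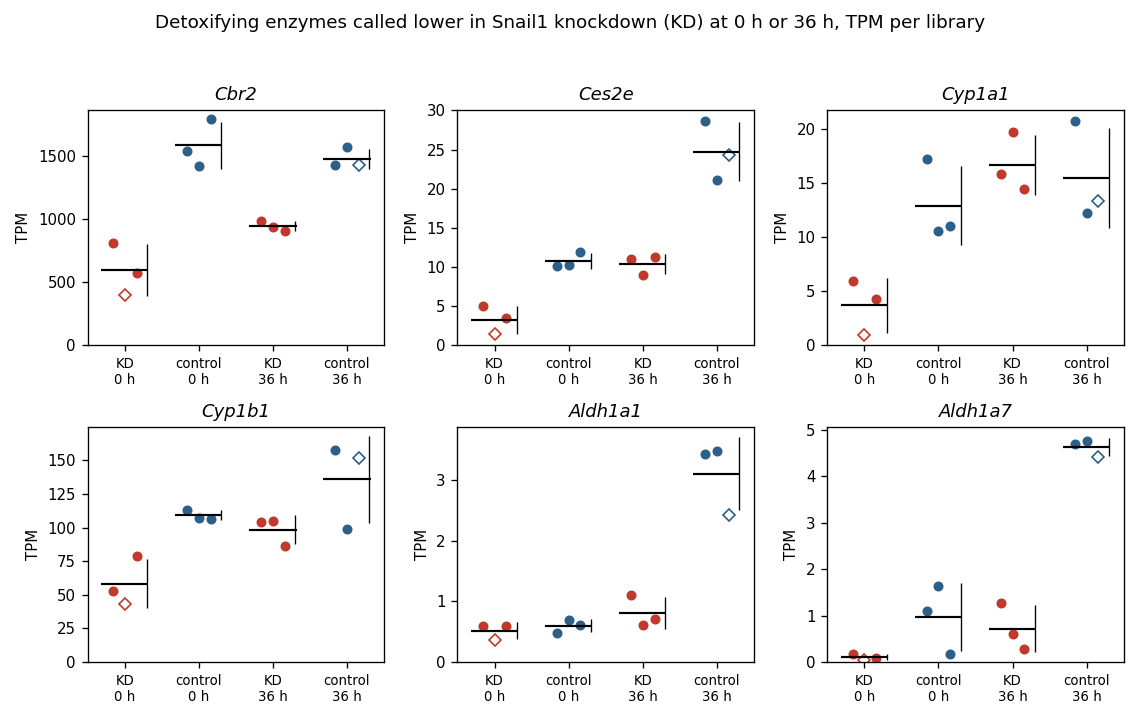
TPM (linear axis from 0) per library of Cbr2, Ces2e, Cyp1a1, Cyp1b1, Aldh1a1 and Aldh1a7 in knockdown (KD, red) and control (blue) at 0 h and 36 h; horizontal lines are means, vertical lines are ± 1 SD (n = 3), and open diamonds mark knockdown 0 h library 2 and control 36 h library 4. Cbr2 and Ces2e are apart at both times, Cyp1a1 is apart at 0 h and overlaps at 36 h, and the Aldh1a genes are apart at 36 h.

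Of the conjugating enzymes beyond the glutathione S-transferases, few were present. Ugt1a6a, which adds glucuronic acid to phenols, was the main Ugt and stood at 41.3, 39.6 and 41.2 TPM in knockdown at 36 h, against 26.3, 28.0 and 29.0 TPM in control (0.54, adjusted p = 0.740, or 0.0104 without library 2). At 0 h it stood at 31.0, 3.5 and 24.2 TPM in knockdown, against 28.1, 27.5 and 32.2 TPM in control (-0.97, adjusted p = 0.213). None of the 3 Ugt genes was called at either time. Sult2b1, a cholesterol sulfotransferase of epithelia, was lower in knockdown at 0 h, with 30.7, 17.4 and 26.2 TPM, against 42.1, 42.0 and 40.9 TPM in control (-0.76, SE 0.210, adjusted p = 0.0314, or -0.54 and 0.00593 without library 2). Sult5a1 was lower at 0 h too, with 0.81, 0.85 and 0.35 TPM in knockdown, against 1.65, 2.33 and 1.7 TPM in control (-0.80, adjusted p = 0.0390, or -0.88 and 0.0280 without library 2). At 36 h the values were -0.39 for Sult2b1 (adjusted p = 0.420) and -0.76 for Sult5a1 (adjusted p = 0.119), with no overlap for either gene. Without library 2 both genes were called lower at 36 h. With median-of-ratios scaling both 0 h calls were lost (-0.26, adjusted p = 0.250 and -0.50, adjusted p = 0.227). The 0 h call of Sult2b1 was lost without 6 of the 12 libraries (each control 0 h library, knockdown 36 h libraries 1 and 2 and control 36 h library 4). That of Sult5a1 was lost without each of those 6 and also without knockdown 0 h library 3 or control 36 h library 3.

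Over all 71 members at 0 h, library 2 shifted most values downward. The log2 fold change was higher without it for 62 members and lower for 9. Beside the 15 genes called in both fits, 14 were called without library 2 alone: Mgst1, Gsta2, Cbr3, Aldh1b1, Gstm5, Akr7a5, Gstp1, Cbr4 and Cbr1 were higher, and Gsta4, Aldh2, Mgst2, Akr1a1 and Aldh16a1 were lower. With all libraries these 14 genes had log2 fold changes between -1.24 and 0.83. Several genes described above that were called at 0 h in neither fit were near 0 without library 2: Gsta3 showed 0.08, Ces1f 0.07, Mgst3 0.06, Akr1b1 0.05, Aldh1a1 0.00, Cyp2j6 -0.01, Gsto1 -0.08 and Ugt1a6a -0.09. Others called in neither fit were not near 0. Aldh1a7 showed -0.72 (limma adjusted p = 0.152), and Aldh18a1 was also well below 0, at the value given earlier.

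**Figure D4:**
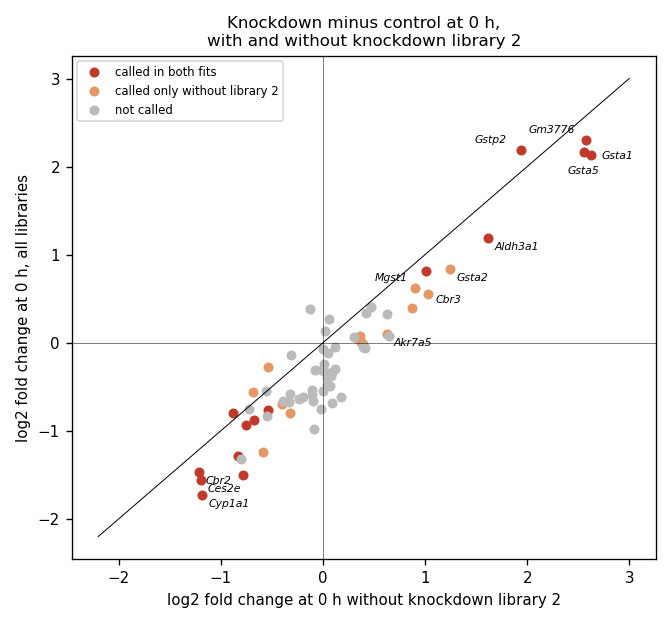
Log2 fold change of the 71 members, knockdown minus control at 0 h on the log2(TPM + 1) scale, with all libraries (vertical axis) against the fit without knockdown 0 h library 2 (horizontal axis); the diagonal is equality. Of the points, 62 lie below the diagonal and 9 above, 15 are called in both fits and 14 only without the library.

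Over the 36 h of the assay, few members were called as changed in control cells. By limma, 3 were higher at 36 h than at 0 h and 0 lower. The share called was 4.23% of members, against 0.36% of all genes (0.25% higher and 0.111% lower), and at an unadjusted p under 0.05 there were 14 members (5.57% of all genes). Cyp2w1 (ENSMUSG00000029541), an orphan P450, stood at 21.0, 8.12 and 16.0 TPM in control at 36 h, against 2.41, 2.21 and 0.84 TPM in control at 0 h (log2 fold change 2.47, SE 0.379, adjusted p = 0.0170). Ces2g stood at 9.3, 8.28 and 8.32 TPM, against 2.01, 3.11 and 2.67 TPM (1.43, SE 0.234, adjusted p = 0.0251). Aldh1a1 stood at 3.43, 3.48 and 2.42 TPM, against 0.48, 0.7 and 0.61 TPM (1.36, SE 0.204, adjusted p = 0.0160). In each case every 36 h library lay above every 0 h library. All 3 calls were lost without any 1 control 0 h library or without control 36 h library 1. The Aldh1a1 call was also lost without control 36 h library 3, the Cyp2w1 call without control 36 h library 4, and the Ces2g call without either of these or without knockdown 36 h library 1 or 2. No member was called without any 1 control 0 h library or control 36 h library 1 (0.125% to 0.146% of all genes). Without control 36 h library 3 or 4, 1 was called (0.21% and 0.133%). Without knockdown 0 h library 2, 8 members were higher (1.22% of all genes) and 3 lower (1.6%).

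In knockdown cells 7 members were higher at 36 h than at 0 h and 0 were lower. That is 9.86% of members, against 1.12% of all genes (0.998% higher and 0.125% lower). The median log2 change over time was 0.50 for members and 0.33 for all genes, and without knockdown 0 h library 2 these medians were 0.08 and 0.07. Ces2g stood at 7.56, 6.23 and 5.32 TPM in knockdown at 36 h, against 1.35, 0.45 and 1.13 TPM in knockdown at 0 h (1.92, SE 0.234, adjusted p = 0.00234). Ces1f changed by 2.67 (SE 0.408, adjusted p = 0.00957), Aldh3a1 by 1.92 (SE 0.301, adjusted p = 0.0113) and Cyp2w1 by 2.38 (SE 0.379, adjusted p = 0.0118). Cyp2w1 stood at 8.48, 7.13 and 5.63 TPM at 36 h, against 0.66, 0.04 and 1.08 TPM at 0 h. Ces2e (1.52, adjusted p = 0.0373), Cyp1a1 (2.09, adjusted p = 0.0410) and Ces1g (1.21, adjusted p = 0.0467) were also called. The Ces1g value was 0.89 with median-of-ratios scaling (adjusted p = 0.215). Without library 2 all 7 were still called, at values between 1.15 (Ces2e) and 2.11 (Cyp2w1). Ces2g alone kept its call without each library in turn. The calls of Ces1f and Cyp2w1 were lost without knockdown 36 h library 1 or 2, that of Aldh3a1 without any 1 knockdown 36 h library, those of Ces2e and Cyp1a1 without any 1 library outside the knockdown 0 h group, and that of Ces1g without any of these or knockdown 0 h library 1. The count was 1 without knockdown 36 h library 1 or 2 (0.356% and 0.322% of all genes) and 3 without knockdown 36 h library 3 (0.398%). It was 4 without any 1 control library (0.699% to 0.818% of all genes). With median-of-ratios scaling 6 members were higher (1.22% of all genes) and 1 lower (0.444%). Without knockdown 0 h library 3, 20 members were called (11% of all genes), and without library 2, 12, of which 8 were higher (1.95% of all genes) and 4 lower (0.914%).

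Whether the change over time differed between knockdown and control was tested directly, and 0 of 14426 genes (0%) passed in limma. At an unadjusted p under 0.05 there were 766 genes (5.31%), 11 of them members. Ces1f had the largest difference, 2.88 (SE 0.577, adjusted p = 0.358), with a change of 2.67 in knockdown and -0.21 in control. Without knockdown 0 h library 2 the difference was 2.32 (SE 0.299, adjusted p = 0.0260), and Ces1f was then the single member among 10 genes called (0.0703%). Cyp1a1 had a difference of 1.86 and Aldh3a1 of 1.32, with an adjusted p of 0.595 for each. The 36 h changes in knockdown and in control share no libraries, but each shares its libraries with the comparisons of knockdown against control.

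The known regulators and partner enzymes of these families were counted from lists of 15, 26 and 8 genes. Of 10 regulators tested, 1 was called at 0 h and 0 at 36 h in the knockdown comparison, and without library 2 these counts were 1 and 3. Ahr was lower at 0 h, with 3.91, 1.85 and 6.64 TPM in knockdown, against 10.7, 9.19 and 10.2 TPM in control (-1.21, SE 0.350, adjusted p = 0.0367). Its 36 h value was -0.91 (adjusted p = 0.220), and without library 2 it was called at 36 h (adjusted p = 0.0377) and not at 0 h (-0.84, adjusted p = 0.0628). Nfe2l2 stood at 180, 81.2 and 172 TPM in knockdown at 0 h, against 114, 106 and 139 TPM in control (0.19, adjusted p = 0.613), and at 162, 185 and 166 TPM in knockdown at 36 h, against 118, 103 and 110.4 TPM in control (0.62, adjusted p = 0.287). Without library 2 it was called higher at both times (0.56, adjusted p = 0.00926 and 0.62, adjusted p = 0.00401). Nr1i2, the pregnane X receptor, was listed at 0 in all libraries. None of the 10 regulators was called over time in control or knockdown.

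Of 24 partner enzymes tested, 1 was higher and 2 lower in knockdown at 0 h, and 1 was higher and 0 lower at 36 h. Without library 2 there were 4 higher and 4 lower at 0 h and 7 higher and 2 lower at 36 h. Gclm, the modifier subunit of the enzyme that starts glutathione synthesis, stood at 283, 156 and 226 TPM in knockdown at 0 h, against 107, 102 and 93.6 TPM in control (1.09, SE 0.211, adjusted p = 0.00845, or 1.32 and 7.86e-05 without library 2), and showed 0.81 at 36 h (adjusted p = 0.0741, or 0.000719 without library 2). Gclc, its catalytic subunit, stood at 92.7, 94.3 and 83.3 TPM in knockdown at 36 h, against 41.7, 25.0 and 34.3 TPM in control (1.42, SE 0.321, adjusted p = 0.0461), and showed 0.56 at 0 h (adjusted p = 0.214, or 0.95 and 0.0104 without library 2). Por, the reductase that passes electrons to P450s, was lower at 0 h (38.8, 12.3 and 44.0 TPM in knockdown, against 78.5, 70.9 and 86.3 TPM in control, -1.46, adjusted p = 0.0283, or -0.91 and 0.00787 without library 2). Cyb5r3, the cytochrome b5 reductase, was lower at 0 h as well (-2.07, adjusted p = 0.0171, or -1.33 and 0.000998 without library 2). Over time, Papss2, which makes the sulfate donor of sulfotransferases, was higher at 36 h in knockdown (2.02, adjusted p = 0.00228) and in control (1.92, adjusted p = 0.00733). Nqo1, a quinone reductase, was called higher at 36 h in knockdown (1.60, adjusted p = 0.0490) but not in control (1.14, adjusted p = 0.350), and the difference of those changes did not pass (0.46, adjusted p = 0.631). Without library 2 Nqo1 was called in both (1.11 in knockdown and 1.14 in control), and the difference was -0.03 (adjusted p = 0.981). None of the 6 exporters tested was called in any of the 5 comparisons.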

How the data were processed

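The deposited matrix holds TPM (length-corrected levels scaled to one common total per library) from the authors for 57180 genes in 12 libraries, and the authors' gene lengths. Libraries were made with a stranded mRNA kit, per the labels. Tools listed in the submitters' processing notes, without their roles, are HISAT2 2.2.1, cutadapt 1.9.1, HTSeq, FastQC and DESeq2, with build GRCm39. TPM keeps no read depth, so no counting error was available and no count model was used.

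Members were taken by symbol. A gene was tested if 3 or more libraries held 1 TPM or more, and values were taken on log2(TPM + 1), a scale that understates changes of low genes. One limma 3.58.1 model (R 4.3.3; lmFit, contrasts.fit, eBayes with trend) with 4 group means over all 12 libraries gave 5 comparisons. P-values are two-sided, Benjamini-Hochberg adjusted over all 14426 genes, with calls under 0.05. On simulated data of the 36 h comparison with 14426 genes, the model called 14% of 100 genes changed by 1 on the log2 scale and 69% of 100 changed by 2, and 2 of its 85 calls were false. The changed genes all had a mean above 3 on the log2(TPM + 1) scale. Noise was independent between genes and libraries, with no other group difference and no shift shared by a whole library. Knockdown 0 h library 2 does differ as a whole, so these rates may not hold for the calls given here. Members and lists were chosen with earlier results of these data known.

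Named genes were Snai1; tested Aldh1, Aldh3 and Gsta genes, Gm3776 and Ces1f; per comparison and direction the called members of lowest adjusted p, 8 at most, that reached 5 TPM in the higher group; and the 2 most abundant members of each of 10 families. Genes named outside this rule, such as Aldh5a1, Sult5a1, Cbr1, Cbr3 and Cbr4, were picked after their values were seen. The lists were 15 regulators, 26 partner enzymes, 8 exporters and marker sets of 6 cell types.

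Same-numbered libraries did not deviate together (15 pairs, correlations across genes of -0.287 to 0.132), so replicate numbers were not used to pair samples. Alternatives tried were median-of-ratios scaling, a filter of 5 TPM, no filter, the replicate block, a pseudocount of 0.1, leaving out each library, and, chosen after seeing the data, median-of-ratios scaling without knockdown 0 h library 2 and a fit without both that library and control 36 h library 4. Promoter windows and motif counts came from RefSeq (GRCm38.p6), and transcript overlap from GENCODE M21.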

Additional observations from a re-analysis of the deposited data

Results flagged for a closer look

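Gsta4 lay on opposite sides of control at the 2 times. Every knockdown library was below every control library at 0 h and above every control library at 36 h. The difference of those effects was 1.01 on the log2 scale and did not pass limma (adjusted p = 0.595).

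Gstt3, a theta-class transferase, moved in opposite directions over time. Every 36 h library lay above every 0 h library in knockdown (64.8, 65.6 and 72.3 TPM at 36 h, against 63.6, 26.4 and 60.0 TPM at 0 h), and every 36 h library lay below every 0 h library in control (71.2, 66.4 and 66.0 TPM at 36 h, against 72.8, 73.7 and 72.2 TPM at 0 h). The difference was 0.63 (limma adjusted p = 0.595), and knockdown 0 h library 2 holds the lowest value.

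Ces1f changed over time by more in knockdown than in control when knockdown 0 h library 2 was left out, with a difference of 2.32 (limma adjusted p = 0.0260), against 2.88 with all libraries (adjusted p = 0.358). Without the library, its knockdown 0 h values are 22.1 and 23.3 TPM. The cause was not tested.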

How the results depend on the processing

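Knockdown against control gave 15 called members at 0 h and 7 at 36 h. The time change gave 7 in knockdown and 3 in control, and its difference 0. At 0 h the count was 5 with no filter (3.5% of all genes) and 8 with the replicate block (7.01%). At 36 h it was 19 with median-of-ratios scaling (5.94%) and 0 with the replicate block (0.0347%). Over time in control it was 0 with a pseudocount of 0.1 (0.277%) and 0 with no filter (0.109%). There it was 1 with a filter of 5 TPM (0.378%) and 0 with the replicate block (0.0416%). Over time in knockdown it was 4 with no filter (0.326%) and 3 with the replicate block (0.277%). The block leaves 5 residual degrees of freedom in place of 8 and adds nothing for control 36 h library 4, and same-numbered libraries share only a number. Median-of-ratios scaling without knockdown 0 h library 2 gave 24 and 28 at the 0 h and 36 h times (23% and 19.4% of all genes). It gave 8 over time in control (2.78%) and 1 for the difference (0.0351%). Leaving out both that library and control 36 h library 4 gave 23 at 0 h and 22 at 36 h (20.3% and 10.3%), and 5 over time in control (1.14%). Leaving out each library in turn gave 6 to 29 called members at 0 h and 2 to 30 at 36 h, 1 to 20 for the time change in knockdown, 0 to 11 in control and 0 to 1 for the difference, with the arm of 2 libraries taken to vary like the rest. In those fits 5.27% to 41.1% of all genes were called at 0 h and 0.168% to 19% at 36 h. For the time change the shares were 0.322% to 11% in knockdown and 0.125% to 2.82% in control, and for the difference at most 0.0703%. Of 32 calls of 21 genes, 6 were kept in each of up to 19 alternatives (Gm3776, Gsta1, Gsta5, Cbr2 and Ces2e at 0 h and Ces2g over time in knockdown; Gsta5 was not tested with the 5 TPM filter), 26 were lost at least once and 0 reversed. The cause was not tested. Depth is unknown, so no counting error is given.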
